A study of Homo sapiens with 32 samples.

Results

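The change in transcription start sites between 6 h and 24 h was examined in LNCaP, a human cell line from prostate cancer that responds to androgen. The members were the 8 LNCaP libraries of 1 table that were collected at these times, out of 32 libraries in the series, and they were compared as 4 pairs that received the same treatment. All cells had been kept for 3 days in phenol red-free medium with 2.5% charcoal-stripped serum, which removes most steroid hormones. The treatments were the vehicle ethanol alone, the androgen dihydrotestosterone (DHT) at 10 nM, the antiandrogen bicalutamide at 1 µM, which blocks the androgen receptor, and both drugs at these doses. Each treatment gave 1 library at 6 h and 1 at 24 h, so no condition was replicated. Time after treatment and time in culture cannot be told apart here, because the vehicle pair aged with the others. One further LNCaP library was taken untreated at 0 h, and BicR, a second prostate cancer line that received the same treatments, gave another 8 libraries at 6 h and 24 h.

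The assay, cap analysis of gene expression (CAGE), is designed to read the first bases of capped RNAs. A tag is therefore taken to mark the position at which an RNA polymerase began, which was not tested for single sites. A gene can hold several start sites, and many active promoters fire on both strands, with a minus-strand site lying just upstream of a plus-strand site. Androgen bound to its receptor raises the transcription of a set of prostate genes within hours. Bicalutamide competes for the receptor. The table names each site by its hg19 position and pairs it with no gene. Sites are therefore given by chromosome, position and strand, no gene name or sequence is given, and the labelled cell type could not be set against marker genes. The level of a site is given as deposited RPM (tags scaled by the authors to a common library total). The table held 5313088 to 7753336 tags in each of the 8 libraries, and 3 tags corresponded to 0.326 to 0.471 RPM.

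Of the 4 LNCaP libraries at 6 h, 2 stood apart from the rest, those of bicalutamide and of DHT with bicalutamide. A set of 219 sites lay under 1 RPM in every other library of both lines except 1 BicR library, which had DHT and bicalutamide for 6 h. Summed over these near-empty sites, the level was 599.2 RPM in LNCaP bicalutamide at 6 h, 169.3 RPM in LNCaP DHT with bicalutamide at 6 h, and 7648 RPM in that BicR library. The other 6 LNCaP libraries at these times held 8.08 to 12.1 RPM in all at the 219 sites. The set was chosen by the 1 RPM limit after the data were seen, so low sums in those 6 follow from the choice. A site just over 1 RPM elsewhere is not among the 219, even if these libraries stand out at it. At position 47441837 on the plus strand of chromosome X the level was 13.5 RPM in LNCaP bicalutamide at 6 h. It was 113.5 RPM in that BicR library and 1.78 RPM in LNCaP ethanol at 6 h. Across all sites, the 219 included, the log2 levels of the 2 libraries that stood apart correlated with that BicR library at 0.903 and 0.866. The other 6 did so at 0.778 to 0.807. The correlations without the 219 sites were not computed. Both LNCaP libraries that stood apart are 6 h libraries. In these 2 pairs a change with time and the property that sets the libraries apart therefore cannot be told apart. The values of the ethanol and DHT pairs are therefore given beside the main counts, the named sites and the runs of sites.

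Among the sites that passed the test between 6 h and 24 h, more fell than rose, and most of their changes were small. Of 13095 sites tested, 584 (4.46%) were called, that is, passed an adjusted p of 0.05 in edgeR's quasi-likelihood test with the treatment as the block that pairs the libraries. Of these, 187 rose (1.43%) and 397 fell (3.03%). Rises were thus 32% of the calls, but 14.2% to 46.1% when 1 pair was left out (15 against 91 without the DHT with bicalutamide pair, 536 against 627 without the ethanol pair), 24.7% in DESeq2 and 11.1% with all 18 libraries of the table in the fit. Over all sites tested, called or not, 6648 had a positive and 6447 a negative log2 change. The called rises had a median log2 change of 0.51 and the falls one of -0.61, and the median over all sites tested was 0.00. A change of over 2-fold was seen at 12 rises and 53 falls, and 31 of those falls were near-empty sites. Near-empty sites made up 31 of all falls, which leaves 366 elsewhere. The 366 still reach a log2 change of -10.16, against -8.70 among the near-empty falls, so the 1 RPM limit does not take out all extreme falls. Of the 366, 362 passed the count filter with the ethanol and DHT pairs alone, and the rest did not. Whether the fall of -10.16 rests on the libraries that stand apart was not tested. A site counted as not overlapping when its 4 libraries at one time all lay above its 4 at the other, and this held at 1433 of all sites tested (10.9%). It held at 130 of the 187 rises and at 297 of the 366 falls outside the near-empty sites.

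These counts depend on the 2 pairs whose 6 h library stands apart. With the ethanol and DHT pairs alone, a fit with 1 residual degree of freedom, no site passed the adjusted threshold in edgeR (0 of 13034), while 816 had an unadjusted p below 0.05. Leaving out the bicalutamide pair left 114 calls, leaving out the DHT with bicalutamide pair left 106, leaving out the DHT pair left 328, and leaving out the ethanol pair gave 1163. DESeq2 called 279 sites on the 8 libraries. Most called sites moved the same way in the remaining pairs. In the ethanol and DHT pairs alone, 356 of the 366 falls were lower in both pairs and 174 of the 187 rises were higher in both, against 27.4% and 25.5% of all sites that moved so. At an unadjusted p under 0.05 in those 2 pairs, 287 of the 362 falls tested there were lower (79.3%, against 3.51% of all sites tested) and 135 of the 187 rises were higher (72.2%, against 2.75%). The calls had been made with these pairs among the 4, so these shares are a description.

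**Figure D1:**
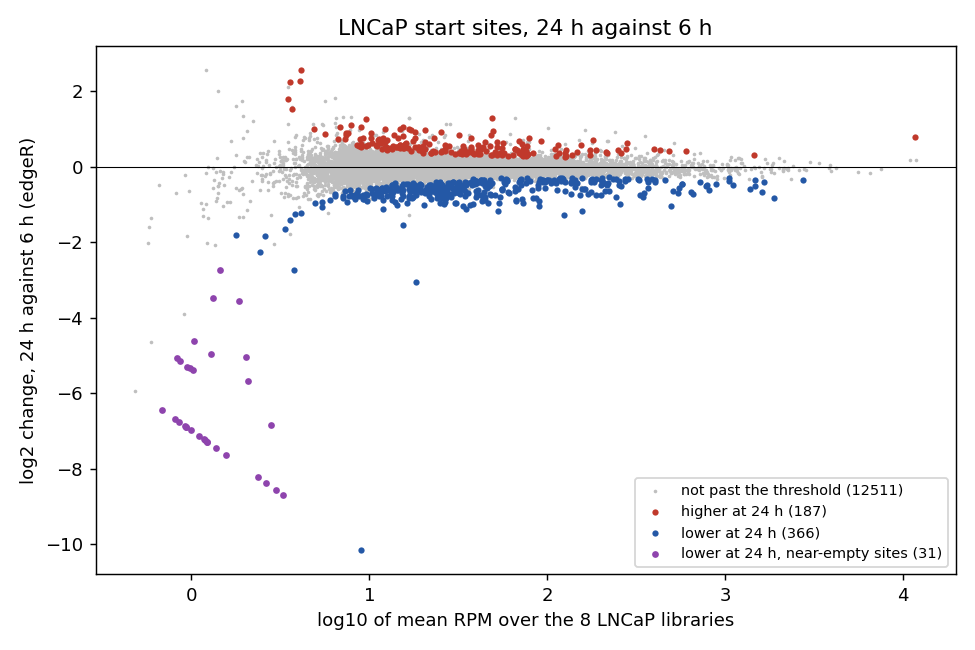
Log2 change at 24 h against 6 h (vertical axis, edgeR estimate over the 4 LNCaP pairs) against the log10 of the mean RPM over the 8 LNCaP libraries, 1 point per site tested. Rises (187, red) and falls (366, blue) lie mostly within 1 log2 unit of 0 over all levels. The 31 near-empty falls (purple) lie at the low end with changes down to -8.70. The lowest change of all, -10.16, belongs to a fall outside the near-empty sites, as the 1 RPM limit defines them.

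Falls were more frequent among strong start sites. Outside the near-empty sites, 35 of 393 sites above 300 RPM fell (8.91%), against 57 of 1127 between 100 and 300 RPM (5.06%) and 36 of 2408 under 10 RPM (1.5%). Of these falls, 35, 56 and 33 in the same order were lower in both the ethanol and the DHT pair. Rises made up 1.04 to 1.86% of sites in every class of level. The median standard error of the log2 change was 0.167 below 10 RPM and 0.0823 above 300 RPM, so a change of a given size was easier to call at strong sites. The part of this in the order of the shares was not tested.

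The site that rose most among those with a mean of at least 10 RPM and the same direction in all pairs lay at position 142254409 on the plus strand of chromosome 5. Its level was 9.64 RPM at 6 h and 10.7 RPM at 24 h with ethanol, 6.52 and 23.5 RPM with DHT, 7.84 and 20.3 RPM with DHT and bicalutamide, and 8.31 and 11.8 RPM with bicalutamide. All 4 libraries at 24 h lay above all 4 at 6 h, and both pairs that contained DHT moved further than the pairs without it. The mean went from 8.08 ± 1.29 RPM to 16.6 ± 6.31 RPM (SD, n = 4 treatments), a log2 change of 1.00 ± 0.225 (SE) with an adjusted p of 0.0304. The call was lost without the DHT pair (adjusted p = 0.115), without the DHT with bicalutamide pair (0.201) and without the bicalutamide pair (0.0803). In the ethanol and DHT pairs alone the change was 1.06 with an adjusted p of 0.767.

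The strongest site that rose lay at position 65266515 on the plus strand of chromosome 11. It stood at 4463 RPM in the untreated library at 0 h. At 6 h it reached 7937 RPM with ethanol, 10190 RPM with DHT, 7407 RPM with DHT and bicalutamide and 8757 RPM with bicalutamide, and at 24 h 13790, 12610, 16500 and 16290 RPM in the same order. The lowest library at 24 h thus lay above the highest at 6 h, and the untreated library lay below all 8. The DHT pair moved least, by 0.31 on the log2 scale, against 0.80 for ethanol, 1.10 for DHT with bicalutamide and 0.93 for bicalutamide. The mean rose from 8574 ± 1215 RPM to 14800 ± 1911 RPM (SD, n = 4 treatments), and the log2 change of 0.78 ± 0.119 (SE) had an adjusted p of 0.00427. Without the bicalutamide pair the adjusted p was 0.0535, and without the DHT with bicalutamide pair it was 0.056. In the ethanol and DHT pairs alone the change was 0.56 with an adjusted p of 0.767. In a separate LNCaP time course described below, the cluster of tags of the same name spanned 5269 bp, against a median of 159 bp. Whether all tags of this site mark RNA starts was not tested.

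Among called sites with a mean of at least 10 RPM and the same direction in all pairs, the largest fall was on chromosome 6. The site lay at position 27782799 on the plus strand. Its level went from 27.0 to 11.1 RPM with ethanol, from 23.8 to 5.32 RPM with DHT, from 15.2 to 4.70 RPM with DHT and bicalutamide and from 25.5 to 11.2 RPM with bicalutamide. No library at 24 h reached the lowest at 6 h, and the untreated library stood at 26.4 RPM, within the range of the 6 h libraries. The log2 change was -1.53 ± 0.157 (SE) with an adjusted p of 0.000506, and the call held without each pair in turn. In the ethanol and DHT pairs alone the change was -1.67, with an adjusted p of 0.271.

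The strongest site that fell, at position 6643682 on the plus strand of chromosome 12, moved much less. It went from 3014 to 2760 RPM with ethanol, from 2939 to 2285 RPM with DHT, from 2984 to 2220 RPM with DHT and bicalutamide and from 3317 to 2370 RPM with bicalutamide. The 2 sets of libraries did not overlap, but the ethanol pair changed by only -0.13 on the log2 scale. The log2 change of -0.36 ± 0.0858 (SE) had an adjusted p of 0.0401, and the call was lost without the DHT pair (adjusted p = 0.125), without the DHT with bicalutamide pair (0.232) and without the bicalutamide pair (0.204). In the ethanol and DHT pairs alone the change was -0.24 with an adjusted p of 0.813.

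**Figure D2:**
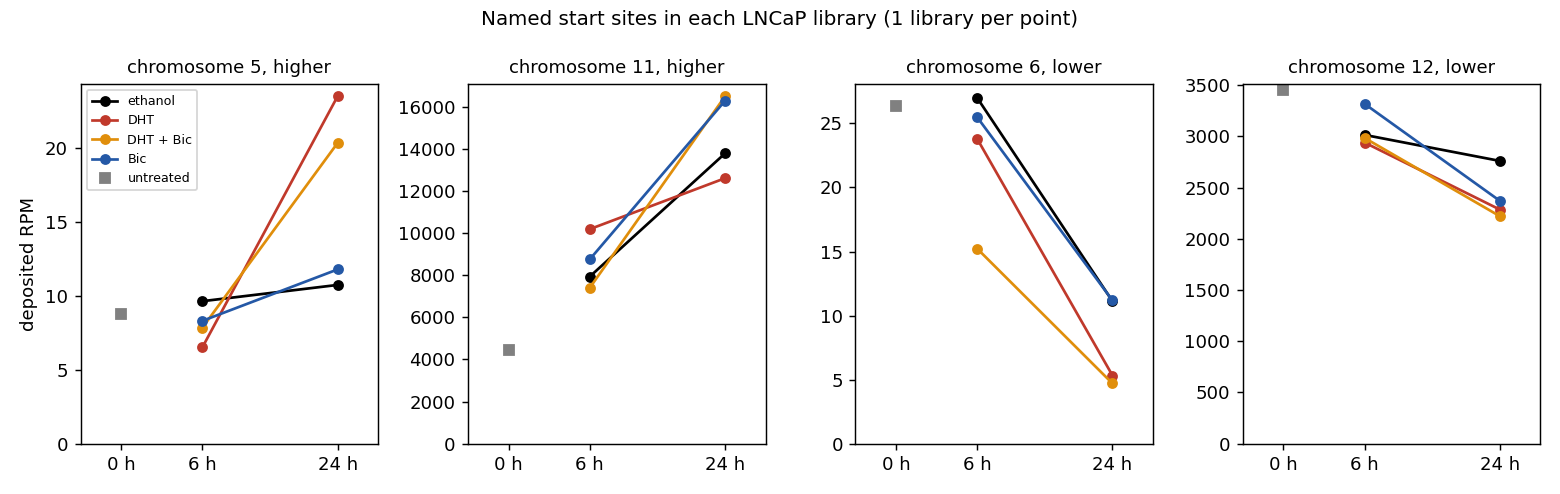
Deposited RPM (linear axes from 0) of the 4 named sites in the untreated library at 0 h and in each treatment at 6 h and 24 h, with a line joining the 2 libraries of a treatment and 1 library per point. In each panel the 4 libraries at 24 h lie on one side of the 4 at 6 h, and on chromosome 12 the ethanol line is the flattest.

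Of all chromosomes, chromosome 6 had the highest share of falling sites. There 60 of 646 sites tested fell (9.29%), or 56 without the near-empty sites, against 3.03% of all sites tested, and on no other chromosome did falls outside the near-empty sites exceed 4.02% of the sites tested. Of the 56, 52 were lower in both the ethanol and the DHT pair. A single run from position 26020680 to 27861202 held 30 of these falls. A run joined sites of 1 direction whose next member lay within 1 Mb. Of the 49 sites tested in it outside the near-empty ones, 61.2% fell and 0 rose. Elsewhere on chromosome 6, 27 of 594 sites fell (4.55%). The segment was chosen after its values were seen, so its count is a description. As background, the short arm of chromosome 6 carries the main cluster of replication-dependent histone genes, whose RNAs are made chiefly while a cell copies its DNA. RefSeq's table for GRCh38.p14, used for names and chromosomes alone, lists 55 of its 73 histone genes of this kind on chromosome 6 and 13 on chromosome 1. No site of the run was assigned to a gene.

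The 30 sites of the run fell in all 4 pairs, and none of them overlapped between the times. Their summed level was 12063 RPM in the untreated library. At 6 h it was 10294 RPM with ethanol, 10110 RPM with DHT, 10406 RPM with DHT and bicalutamide and 9970.5 RPM with bicalutamide, and at 24 h it was 6456.8, 6555.5, 6374.3 and 6134.4 RPM in that order. The libraries of 1 time differed little from each other, with means of 10190 ± 193 RPM at 6 h and 6380 ± 180 RPM at 24 h (SD, n = 4 treatments). The untreated library lay above all 6 h libraries at 23 of the 30 sites and above all 24 h libraries at 30. The ethanol pair fell about as far as the DHT pair. The median log2 change of the 30 sites was -0.70 in the ethanol pair, -0.72 in the DHT pair, -0.91 with DHT and bicalutamide and -0.76 with bicalutamide.

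The single sites of the run had log2 changes from -1.53 to -0.48 and adjusted p-values from 8e-05 to 0.00759. Their mean levels ran from 15.5 to 1380 RPM with a median of 173 RPM, and 15 lay on each strand. In the ethanol and DHT pairs alone all 30 were lower at an unadjusted p under 0.05. This held for 79.3% of the falls tested there and 3.51% of all sites. The smallest adjusted p of the 30 was 0.271, so none passed the adjusted threshold there. The other 19 sites of the segment had a median log2 change of 0.05, and their summed level was 1825 ± 81.1 RPM at 6 h and 1637 ± 46.8 RPM at 24 h. They were weaker, with a median of 16.2 RPM. The treatment difference of the change, DHT present against absent, reached no adjusted p below 0.241 at the 30 sites.

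Many of the falling sites of the run lay back to back. A divergent pair was counted where a minus-strand site had a plus-strand site within 300 bp downstream of it. Of 9 such pairs in the run, 7 had both sites falling and the other 2 had 1, and the median distance between the sites was 244 bp. Among the 1021 divergent pairs elsewhere, both sites fell in 2 and 1 site fell in 39, both rose in 1 and 1 rose in 24, and the median distance was 152 bp. In no pair did 1 site rise while the other fell. The 2 sites of a pair changed in the same direction in 56.6% of the pairs outside the run, and in 9 of 9 pairs inside it. The run was built from called falls, so the counts inside it were largely set by that choice. They are a description and not a test against the pairs elsewhere.

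A second set of neighbouring falls lay on chromosome 1. From position 149783924 to 149859512 all 4 sites tested fell, with log2 changes from -0.75 to -0.41, and in none of them did the times overlap, whereas 3.03% of all sites tested fell and 10.9% did not overlap. Their median was -0.54 in the ethanol pair and -0.73 in the DHT pair. This set too was chosen after its values were seen. In all, 12 runs of at least 4 falls and 3 runs of at least 4 rises were found. The next largest run of falls had 7 of 35 sites tested, on chromosome 6 from position 30658760 to 31795514, with a median of -0.44 among the 7, of -0.32 in the ethanol pair and of -0.50 in the DHT pair.

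**Figure D3:**
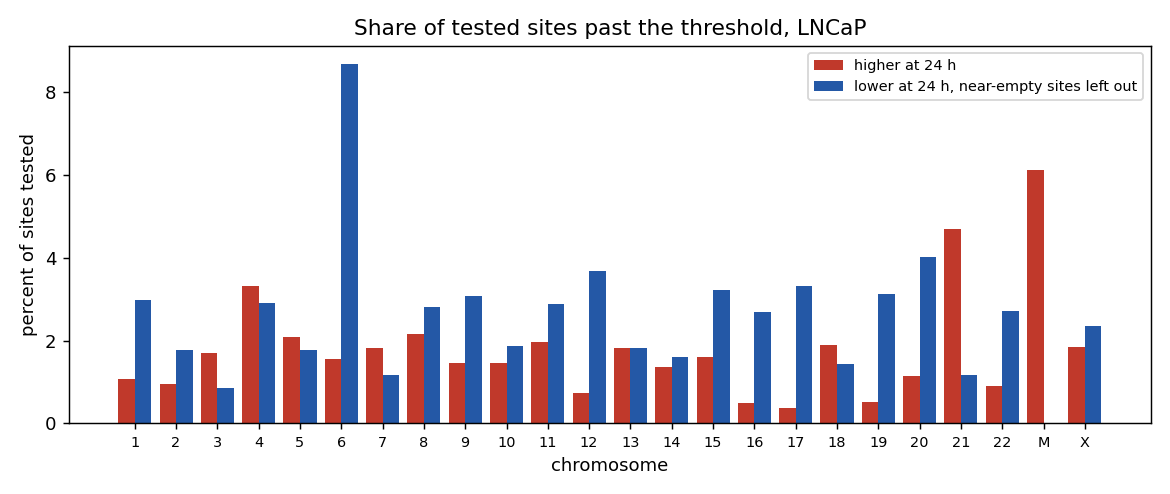
Percent of the sites tested on each chromosome that rose (red) or fell outside the near-empty sites (blue) at 24 h against 6 h in LNCaP, with bars from 0 and chromosome Y not shown. Chromosome 6 has the highest share of falls, 8.67%, and chromosome M the highest share of rises, 6.12%, which is 3 of 49 sites.

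The largest runs of rises held 5 sites each, on chromosome 11 from position 65190268 to 65268076 and on chromosome 5 from position 107703568 to 107717798. The run on chromosome 11 contains the strongest rising site. Of its other rising sites 1 was on the plus strand and 3 were on the minus strand, and the 5 together had log2 changes from 0.49 to 0.78. Their summed level was 4688.4 RPM at 0 h, 7732.2 to 10561 RPM at 6 h and 13053 to 17033 RPM at 24 h, most of it from the single strongest site. The median log2 change of the 5 was 0.65 in the ethanol pair and 0.33 in the DHT pair.

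On chromosome M, the mitochondrial genome, which a separate polymerase transcribes, levels were slightly higher at 24 h. Whether the tags there mark the starts of capped RNAs was not tested. Of 49 sites, 46 had a positive log2 change and 3 passed the threshold, all of them rises, against 50.8% of all sites with a positive change. The median was 0.18, and it was positive under each of the 3 scalings tried. The summed level was 32239 RPM with ethanol at 6 h and 36937 RPM at 24 h. With DHT it went from 38589 to 40491 RPM, with DHT and bicalutamide from 39337 to 42041 RPM and with bicalutamide from 36405 to 46508 RPM. The times overlapped, since the ethanol library at 24 h lay below 2 of the 6 h libraries. In BicR 2 of the 49 sites were higher at 24 h, with a median of -0.32.

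The untreated library placed the called sites on a longer time scale, with the limit that it is a single library. Sites that rose had a median log2 change of 0.27 from 0 h to 6 h and of 0.79 from 0 h to 24 h, and at 112 of the 187 (59.9%, against 32.6% of all sites tested) the 0 h level lay below all 4 libraries at 6 h. Sites that fell, near-empty sites left out, had medians of -0.12 at 6 h and -0.67 at 24 h against 0 h. At 163 of the 366 (44.5%, against 30.4% of all sites tested) the 0 h level lay above all 4 libraries at 6 h. The near-empty falls had a median level of 0 RPM both at 0 h and at 24 h.

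Across all sites the ethanol pair shared little of its change with the others, and the other 3 pairs shared more. Over 10651 sites with a mean of at least 10 RPM, the log2 changes of the DHT pair correlated with those of ethanol at 0.058 and with those of DHT and bicalutamide at 0.525. The latter correlated with ethanol at 0.184. Bicalutamide correlated at 0.502 with DHT and bicalutamide, at 0.429 with DHT and at 0.246 with ethanol. The bicalutamide and the DHT with bicalutamide pairs each contain a 6 h library that stands apart. The pairs share no library. Over 2-fold changes were rarest with ethanol, where 19 sites (0.178%) were higher and 6 (0.0563%) lower at 24 h. The DHT pair had 86 such rises (0.807%) and 82 falls (0.77%), the pair of DHT and bicalutamide 60 (0.563%) and 71 (0.667%), and the bicalutamide pair 14 (0.131%) and 40 (0.376%). These pairwise counts compare single libraries and carry no test.

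Among the called sites the size of the change also differed between pairs. The 366 falls had a median log2 change of -0.36 in the ethanol pair, -0.70 in the DHT pair, -0.63 with DHT and bicalutamide and -0.61 with bicalutamide. At 129 of them (35.2%) both pairs with DHT fell further than both pairs without it, against 19.1% of all sites tested. The 187 rises had medians of 0.39 with ethanol, 0.48 with DHT, 0.60 with DHT and bicalutamide and 0.54 with bicalutamide. At 61 of them (32.6%) both pairs with DHT rose further than the others, against 19.3% of all sites tested.

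**Figure D4:**
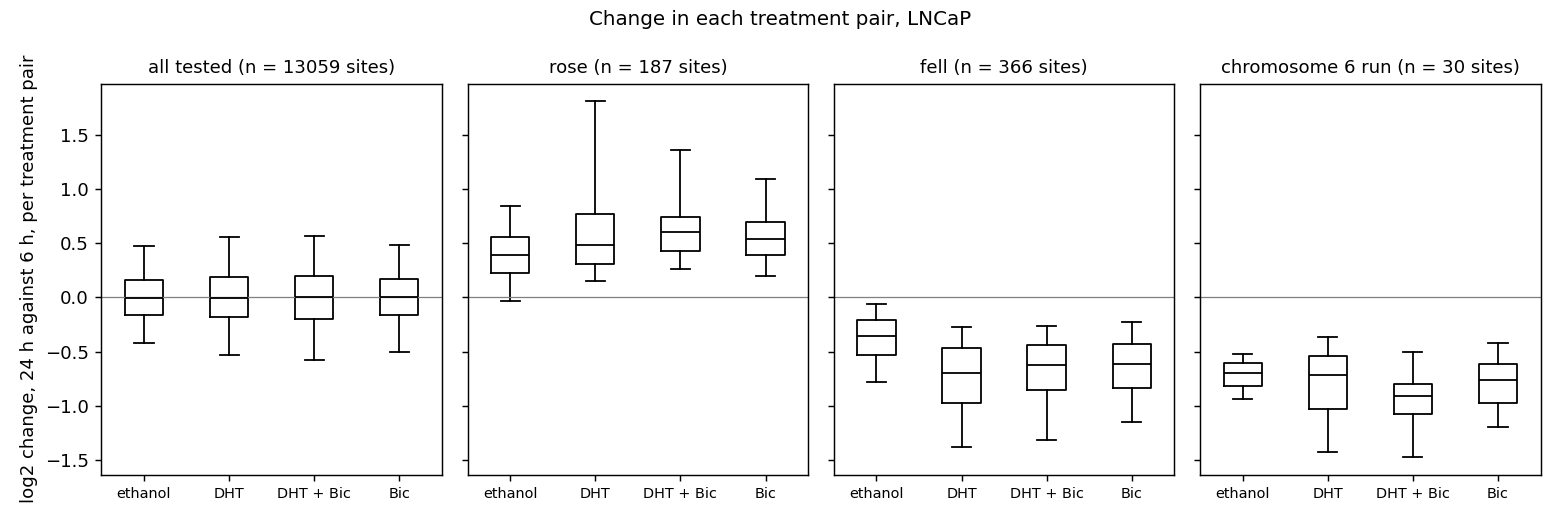
Log2 change at 24 h against 6 h in each treatment pair for all sites tested without the near-empty ones (13059), the rises (187), the falls (366) and the 30 falling sites of the chromosome 6 run. Boxes span the quartiles with the median as a line and whiskers reach from the 5th to the 95th percentile of sites. Falls in general have their smallest median with ethanol (-0.36), whereas in the chromosome 6 run the ethanol median (-0.70) is close to that with DHT (-0.72).

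Whether the time change itself depended on the androgen was tested as the difference between the pairs with DHT and those without it. Of 13095 sites, 7 passed (0.0535%), 5 with a more positive change under DHT (0.0382%) and 2 with a more negative one (0.0153%), and 1031 had an unadjusted p under 0.05. The count was 0 when DHT alone was set against the other 3 treatments, 4 by DESeq2, and 3 to 350 when a pair was left out. The 350 calls came without the bicalutamide pair and hold all 7 sites. Without the DHT with bicalutamide pair, 10 sites were called, 2 of them among the 7. With the deposited library totals 35 sites were called, of which 82.9% were more positive under DHT, against 71.4% of the 7.

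The largest difference was at position 100841811 on the minus strand of chromosome 14. Its level went from 5.11 to 46.2 RPM with DHT and from 8.63 to 33.3 RPM with DHT and bicalutamide. With ethanol it went from 11.3 to 7.84 RPM and with bicalutamide from 10.1 to 11.7 RPM. In LNCaP the rise was seen in the pairs that held DHT, with or without bicalutamide. In BicR the log2 change of the same site was 1.53 with ethanol, 0.99 with DHT, 0.78 with DHT and bicalutamide and 3.45 with bicalutamide, so there the pairs without DHT rose further. The difference of the log2 changes was 2.66 ± 0.380 (SE) with an adjusted p of 0.0415, which became 0.22 without the DHT pair and 0.486 for DHT alone against the other treatments.

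At position 64798171 on the plus strand of chromosome 12 the level went from 92.2 to 218.4 RPM with DHT and from 75.2 to 170.8 RPM with DHT and bicalutamide. It went from 128.9 to 111.5 RPM with ethanol and from 98.4 to 114.9 RPM with bicalutamide. Both DHT libraries at 24 h lay above the other 6 LNCaP libraries of these times, and the difference of the log2 changes was 1.17 ± 0.169 (SE), adjusted p 0.0415. The call was lost without the DHT pair (adjusted p = 0.221), without the DHT with bicalutamide pair (0.0581) and for DHT alone against the other treatments (0.77). In BicR the same site went up in all 4 pairs, by 0.58 with ethanol, 1.04 with DHT, 1.18 with DHT and bicalutamide and 1.40 with bicalutamide.

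The largest difference in the other direction was at position 35656691 on the minus strand of chromosome 6, well away from the falling run. There the level was already high at 6 h with DHT, at 108.5 RPM, and with DHT and bicalutamide, at 62.1 RPM, and it was 37.5 and 28.2 RPM at 24 h. With ethanol it was 28.2 RPM at 6 h and 25.0 RPM at 24 h, and with bicalutamide 35.8 and 32.3 RPM, close to the 34.4 RPM of the untreated library. All 4 libraries at 24 h thus lay between 25.0 and 37.5 RPM. The difference of the changes was -1.23 ± 0.172 (SE), adjusted p 0.0415. The adjusted p became 0.284 in DESeq2, 0.221 without the DHT pair and 0.656 for DHT alone against the other treatments. In BicR the same site changed by -0.40 with ethanol, -0.98 with DHT, -0.63 with DHT and bicalutamide and -2.61 with bicalutamide. The largest fall there was thus in a pair without DHT.

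Start sites that lie near each other on a strand did not always change alike. In place of genes, neighbourhoods were formed by linking sites of 1 strand up to 10000 bp apart, and 1228 neighbourhoods of at least 2 sites were tested for unequal change (diffSpliceDGE of edgeR, with p-values combined by Simes). The test called 7 of them (0.57%), and 106 had an unadjusted p under 0.05. It called 0 without the DHT pair, without the DHT with bicalutamide pair and without the bicalutamide pair, 0 without both pairs whose 6 h library stands apart, and 27 without the ethanol pair. It called 91 with links of up to 50 kb and 1 with links of up to 1 kb.

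In the neighbourhood on the minus strand of chromosome 11 the dominant site, at 118966174, fell from 337.4 ± 19.5 RPM to 173.2 ± 33.7 RPM (SD, n = 4 treatments). The site at 118972562 stood at 31.8 ± 2.66 RPM and 30.3 ± 1.78 RPM at the same times. The weaker site thus kept its level within the spread of the treatments while the dominant one changed by -0.99 on the log2 scale, and the adjusted p for unequal change was 0.00306. The dominant site went from 330.5 to 221.2 RPM with ethanol and from 339.1 to 145.6 RPM with DHT. On the plus strand of chromosome 9, the site at 91926112 fell from 152.2 ± 12.6 RPM to 98.3 ± 16.3 RPM, with 147.4 and 110.2 RPM under ethanol and 163.3 and 79.2 RPM under DHT. A neighbour at 91933425 stood at 31.2 ± 2.14 RPM at 6 h and 37.4 ± 1.76 RPM at 24 h, and the adjusted p for unequal change was 0.00747. In 2 of the 7 neighbourhoods the sites belonged to the chromosome 6 run and had all fallen, by unequal amounts.

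Many of the sites that fell in LNCaP also fell in BicR, a comparison that shares no library with LNCaP. The 2 LNCaP libraries that stand apart do so together with 1 BicR library, and all 3 are on the 6 h side. The counts of LNCaP sites that moved alike in BicR are therefore given with and without their pairs. The shares of the BicR calls and the correlations of the lines were computed only with these libraries included. The 8 BicR libraries gave 1088 calls of 13030 sites tested (8.35%), 574 of them rises and 514 falls. The count was 0 without the BicR DHT pair and without the BicR bicalutamide pair, 578 without its DHT with bicalutamide pair, and 1657 without its ethanol pair. With the deposited library totals it was 1923, of which 84.3% were rises, against 52.8%. Of the 364 LNCaP falls outside the near-empty sites that were tested in BicR, 362 were lower there and 230 were called lower, 63.2% of them, against 3.94% of all sites tested in both lines. Of 184 LNCaP rises, 162 were higher in BicR and 71 were called higher, 38.6% of them, against 4.41%. The shared calls made up 44.8% of the BicR falls and 12.4% of the BicR rises, and with all pairs in no site was called in opposite directions. Without the BicR pair of DHT with bicalutamide, 358 of the 364 LNCaP falls were lower in BicR and 173 were called lower (47.5%, against 2.16% of all sites), and 57 of 181 rises were called higher (31.5%, against 2.28%). With that pair left out, the LNCaP sites were also taken from the ethanol and DHT pairs alone, at an unadjusted p under 0.05. Of 456 sites lower there, 449 were lower in BicR, 173 of them called, and 0 were called higher. Of 353 higher sites, 307 were higher in BicR, 87 of them called, and 1 was called lower. Across 13016 sites, with all pairs of both lines in, the log2 changes of the lines correlated at 0.673 (Pearson) and 0.563 (Spearman). The test of the difference between the lines called 0 of 13214 sites (0%) in edgeR and 1 in DESeq2, although 1400 sites had an unadjusted edgeR p below 0.05. It called 46 without the BicR ethanol pair, and 0 without the 3 pairs whose 6 h library stands apart.

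At the 30 sites of the chromosome 6 run the time change in BicR was uneven between treatments. All 30 were lower at 24 h in the fit over the BicR pairs, as were 99.5% of all LNCaP falls tested there. Past the threshold were 23 of the 30 (76.7%), against 63.2% of the LNCaP falls and 3.94% of all sites. Their median log2 change was -1.01. Without the BicR pair of DHT with bicalutamide 16 passed (53.3%), against 47.5% of the LNCaP falls and 2.16% of all sites, with a median of -0.88 at the 30 sites. The summed level of these sites went from 15381 to 14657 RPM with ethanol, from 18746 to 6978.4 RPM with DHT, from 14942 to 6923.8 RPM with DHT and bicalutamide and from 15041 to 10822 RPM with bicalutamide. The ethanol pair of BicR therefore changed least, with a median of -0.27, whereas the ethanol pair of LNCaP had a median of -0.70. The smallest adjusted p for a difference between the lines at these sites was 0.45, and a difference between the 2 ethanol pairs, of 1 library each at each time, was not tested. The strongest rising site on chromosome 11 had a log2 change of 0.33 over all BicR pairs (adjusted p = 0.428). At 6 h it stood at 2594 RPM with ethanol, 2059 RPM with DHT and 1700 RPM with bicalutamide. In the BicR library that stands apart, that of DHT with bicalutamide at 6 h, it stood at 6660 RPM. At 24 h its level lay between 3467 and 4140 RPM. The pairs changed by 0.26 with ethanol, 0.86 with DHT, -0.80 with DHT and bicalutamide and 0.97 with bicalutamide.

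**Figure D5:**
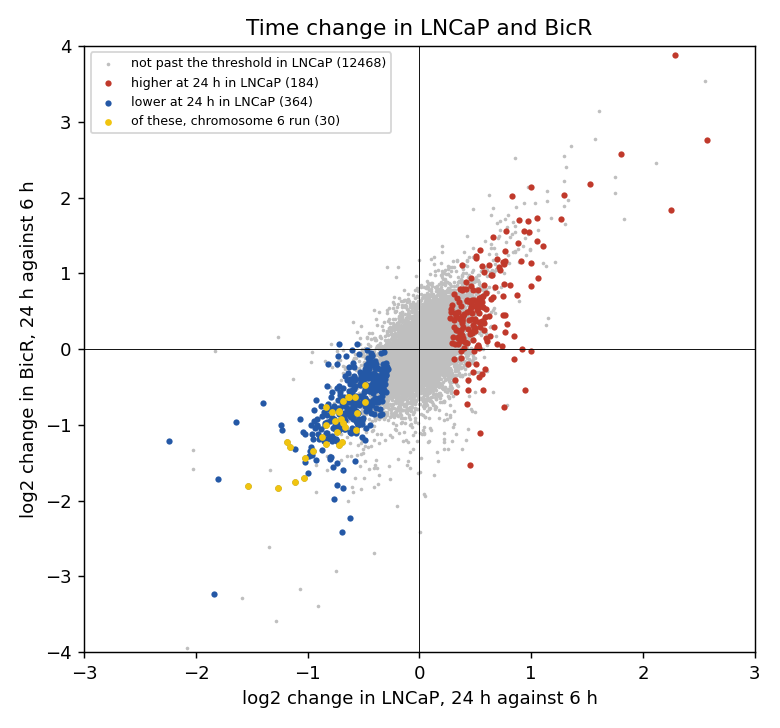
Log2 change at 24 h against 6 h in BicR (vertical axis) against that in LNCaP (horizontal axis) for sites tested in both lines, near-empty sites left out, with 5 sites outside the axes. Of the LNCaP falls (364, blue) all but 2 lie below 0 in BicR, and the 30 sites of the chromosome 6 run (yellow) all do. LNCaP rises (184, red) lie above 0 in BicR at 162 sites.

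A separate LNCaP time course with the synthetic androgen R1881 offered times on either side of 24 h, without any vehicle libraries. It held 2 libraries each at 6 h, 18 h and 48 h, and the mean of 18 h and 48 h was set against 6 h. The test called 5 of 15999 clusters (0.0313%), all lower, with 1412 at an unadjusted p under 0.05. With the replicate number as a block it called 284, of which 110 were higher (0.688%) and 174 lower (1.09%), and DESeq2 called 73. Replicates of the same time differed in depth, with 128463 tags in the shallowest of these 6 libraries and 3171453 in the deepest. Replicate number 1 was the shallower at each of these times, so the block also follows depth. Of the 249 LNCaP falls outside the near-empty sites that this table also tested, 200 were lower at the later R1881 times, with a median log2 change of -0.83 against -0.02 over all sites tested in both tables. None of them passed without the block, and 31 passed as lower with it (12.4%, against 1.21%). The 125 rises found there had a median of 0.02, with 66 higher and 59 lower. Of the 25 sites of the chromosome 6 run found there, 22 were lower, with a median of -1.32. None passed the threshold without the block, and 3 passed as lower with it (12%, against 12.4% of these falls and 1.21% of all sites).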

How the data were processed

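Total RNA was converted to cap-trapped cDNA and read on a HeliScope sequencer, per the labels' protocols, and the genome build was hg19, per the submitters' processing notes. The aligner, the site caller and its filters are not given in the sources used here. Per the file headers, the authors deposited raw tag counts and RPM values per site, and the deposited RPM of a library are its counts times 1 factor. The table lists 13294 single positions. Counts were tested in R 4.3.3 with edgeR 4.0.16 (TMM, filterByExpr with a minimum count of 10, quasi-likelihood F test, Benjamini-Hochberg over all sites tested, threshold 0.05), and DESeq2 1.42.0 was an alternative. Adjusted p-values are edgeR's unless another tool is named. SE is the size of the log2 change over the square root of F. The residual over the 4 pairs, with 3 degrees of freedom, is how far the time change differs between treatments, and p-values measure that spread. The log2 change of a single pair was computed with a prior count of 1. The scripts were tested on simulated data.

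The members, the lists and the tests were chosen with earlier results of these data known. Named sites are, per direction, the one with the largest change and the one with the highest level at its higher time, among called sites with a mean of at least 10 RPM and the same direction in 4 pairs (the last condition not for differences of changes). In the R1881 table, deviations of same-numbered replicates correlated at 0.136 to 0.493 for the 3 pairs of times, all above 0.1. The numbers were therefore taken to pair the libraries. Replicate number 1 was the shallower library at each of these times. It had 140956 against 1425980 tags at 6 h, 128463 against 1357958 at 18 h and 589685 against 3171453 at 48 h. Depth and pairing cannot be told apart by these correlations, and the counts with the replicate block depend on this choice. The labels give R1881 at 1 nM in the characteristics and at another dose in the shared protocol.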

Additional observations from a re-analysis of the deposited data

Results flagged for a closer look

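At 6 sites the change between 6 h and 24 h differed between treatments with and without DHT, by the interaction term of edgeR's quasi-likelihood test at an adjusted p of 0.0415. The difference of the log2 changes was 2.66 at the site on chromosome 14, 1.17 at the site on chromosome 12 and -1.23 at the site on chromosome 6 that are described above. On the minus strand of chromosome 17 a site went from 43.7 to 101.3 RPM with DHT and from 32.6 to 106.1 RPM with DHT and bicalutamide, but from 78.6 to 65.3 RPM with ethanol and from 88.8 to 97.0 RPM with bicalutamide, a difference of 1.46. On the minus strand of chromosome 11 the difference was 1.54, with 14.1 to 31.6 RPM under DHT and 16.6 to 12.0 RPM under ethanol. On the plus strand of chromosome 21 it was -1.23, with 35.9 to 21.3 RPM under DHT and 24.0 to 39.6 RPM under ethanol. These 3 sites were chosen as the remainder of the list after their values were seen, and a site on chromosome Y, also called, is not described here.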

How the results depend on the processing

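The LNCaP count of 584 was 279 with DESeq2 (261 of them shared), 117 with all 18 libraries in the fit, 79 with the ethanol and bicalutamide pairs, 1286 with the DHT and the DHT with bicalutamide pairs, 0 without both pairs whose 6 h library stands apart, and 106 to 1163 without 1 pair. It was 560 to 590 under the other scalings and without the filter, 527 without the near-empty sites, and 466 with no replicate block, that is, with the pairing by treatment left out. The 7 differences by DHT became 4 with DESeq2, 35 with the deposited totals, 0 for DHT alone and 3 to 350 without 1 pair. The 0 differences between the lines became 1 with DESeq2 and 0 to 46 without 1 pair. The 1088 BicR calls became 1923 with the deposited totals, 2875 with all 18 libraries and 0 to 1657 without 1 pair. The 5 R1881 calls became 73 with DESeq2, 284 with the replicate block, 2 when replicate number 2 of 6 h and of 18 h was dropped, and 1 to 7 without 1 library. The 7 neighbourhoods became 1 and 91 with links of 1 kb and 50 kb, 0 without both pairs that stand apart, and 0 to 27 without 1 pair. The cause of these shifts was not tested. Alternatives that remove both pairs, or the 3 pairs in the comparison of lines, and those that remove the near-empty sites outside the LNCaP comparison were chosen after seeing the data. The 7 sites described as largest or strongest in the time change and its difference by DHT were followed under the alternatives, and none reversed its direction. Other sites given by position were not followed. With 1 library per condition, a change of 1 treatment alone cannot be tested, and at sites under 10 RPM the median standard error of 0.167 on the log2 scale limits what can be called.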
